A study of Homo sapiens with 8 samples.

Results

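In a pooled CRISPR knockout screen of chromatin regulators, 120 of 7855 sgRNAs were directed against 12 of the 779 targeted genes that write histone H3 lysine 9 (H3K9) methylation, help to place it, or read it as heterochromatin protein 1 (HP1). The genes were SUV39H1, SUV39H2, SETDB1, SETDB2, EHMT1, EHMT2, ATF7IP, TRIM28, MPHOSPH8, CBX1, CBX3 and CBX5, and all 12 were in the library with 10 sgRNAs each. Members were taken by the gene name printed beside each sgRNA. All samples were T1-160 cells, a single line derived from the triple-negative breast cancer line SUM159PT by exposure to stepwise higher doses of Taxol (paclitaxel). They expressed Cas9, carried the lentiviral EPIKOL library and had been selected in puromycin in the presence of verapamil. The Taxol group (3 libraries) was then grown in 160 nM Taxol for 16 population doublings, the DMSO group (3 libraries) in vehicle for 16 population doublings, and the AP group (2 libraries, replicates 1 and 3) was collected right after puromycin selection. The labels do not state whether the replicates were cultured or infected apart. The limma p-values therefore measure only the spread between these samples, which may be technical. The gene p-values from sgRNA ranks, described below, rest on the same samples but do not measure this spread directly.

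Methylation of H3K9 marks silent chromatin. SUV39H1 and SUV39H2 place the trimethyl mark at pericentromeric repeats, the SETDB1 complex places it at retroelements and zinc-finger target sites, and EHMT1 (GLP) and EHMT2 (G9a) form the dimer that places mono- and dimethylation in euchromatin. The HP1 proteins bind the mark through a chromodomain and compact the chromatin around it. In a dropout screen, cells that lose a gene needed for growth become rarer, and so do their sgRNAs, while sgRNAs whose target slows growth become more common.

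The 8 libraries held 2045984 to 11771420 reads, or 260.5 to 1499 reads per sgRNA, and no sgRNA was at 0 in any of them. The 10 most abundant sgRNAs took 6.23% to 10.6% of the reads of the Taxol libraries, 2.36% to 2.80% of the DMSO libraries and 1.53% to 2.73% of the AP libraries. Values are normalized counts, scaled by the authors separately for each of the 3 comparisons, so levels were set side by side only within a comparison. Gene levels are given as means of log2(normalized count + 1) across the 10 sgRNAs, and a log2 fold change is the difference of such means between groups. On this scale the changes of rare sgRNAs come out too small.

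The sgRNAs against the 12 genes were 1.53% of the library by number. They took 1.32%, 1.39% and 1.57% of the reads in Taxol 1, 2 and 3, 1.46%, 1.38% and 1.56% in DMSO 1, 2 and 3, and 1.58% and 1.44% in AP 1 and AP 3. The share of the 12 genes together thus stayed near their share by number, and the groups overlapped. The least abundant of the 120 was the same sgRNA in every library, number 6094 against SUV39H1, with 22, 17 and 4 reads in Taxol 1 to 3, 23, 38 and 12 in DMSO 1 to 3, and 44 and 26 in AP 1 and AP 3. At such counts a change of this sgRNA was hardly measurable.

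No sgRNA of the 12 genes was among the 1% with the most reads in more than 1 library. Among the 1% of sgRNAs with the most reads, Taxol 1 held MPHOSPH8 3753, at 10675 normalized counts against 744 and 819 in Taxol 2 and 3. Taxol 3 held ATF7IP 492, at 7238 against 1415 and 742 in Taxol 1 and 2, and EHMT2 1890, at 7020 against 1389 and 1717. DMSO 3 held MPHOSPH8 3759, at 3300 against 346 and 479 in DMSO 1 and 2, and CBX1 980, at 2946 against 345 and 392. None of these was among the top 1% in another library of its group. Some were still abundant there, as EHMT2 1890 was against the median of all sgRNAs in Taxol 1 (399) and Taxol 2 (389). Others were not, as CBX1 980 lay below that median in DMSO 1 (429) and DMSO 2 (398). AP 1 held SETDB1 5545 and AP 3 held EHMT2 1885. The typical sgRNA of the 12 genes had an SD between the Taxol libraries of 0.84 on the log2 scale, the median over the 120. It was 0.63 over all sgRNAs and 0.73 over the non-targeting sgRNAs. Between the DMSO libraries the median SD of the 120 was 0.75, against 0.70 over all and 0.81 over non-targeting sgRNAs. Between the AP libraries it was 0.37, against 0.35 and 0.40, in the table that compares DMSO with AP.

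Taxol was compared with DMSO to find knockouts that alter the growth of resistant cells under the drug. None of the 12 genes was called. The test ranked all sgRNAs by limma and asked by robust rank aggregation (RRA), with an exact null distribution, whether those of a gene lay towards the low end (depletion) or the high end (enrichment), and a gene was called at an adjusted p under 0.05. The RRA p-values compare the ranks of a gene's sgRNAs with random ranks, taking the sgRNAs as independent. They are not a direct measure of the spread between libraries. Over all 779 genes, 0.257% were called depleted and 0.128% enriched. At the unadjusted p under 0.05 that the study used, 1 of the 12 passed, CBX3 as depleted, against 4.75% of all genes depleted and 6.55% enriched. With a library left out, 0 passed without DMSO 1 and 2 without DMSO 2, DMSO 3, Taxol 1 or Taxol 3. The 120 sgRNAs had a median log2 fold change of 0.016, against 0.037 for all sgRNAs and 0.11 for the 80 non-targeting sgRNAs, and 57 of them were below 0 and 63 above. With a library left out this median ran between -0.021 without Taxol 1 and 0.12 without Taxol 2. Of the 12 genes, 5 had a negative mean and 7 a positive one, between -0.44 for CBX3 and 0.36 for SETDB2, EHMT2 and CBX5. Centring each library on its non-targeting sgRNAs moved the median of all genes by -0.17, and of the 12 only CBX1 changed its sign.

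The SUV39H enzymes overlapped between Taxol and DMSO, while each kept a single sign within same-numbered libraries. SUV39H1, the best known H3K9 methyltransferase, averaged 7.75, 7.48 and 7.96 in the Taxol libraries and 7.81, 7.80 and 8.00 in the DMSO libraries. Its log2 fold change was -0.14 ± 0.19 (SD between libraries, n = 3 per group, as for all values below unless stated), with a 95% interval of -0.58 to 0.29 from limma on gene means, and 6 of 10 sgRNAs were lower. SUV39H2, its paralog, averaged 8.14, 8.23 and 8.49 in Taxol and 7.78, 8.04 and 8.21 in DMSO, a difference of 0.28 ± 0.20 (interval -0.16 to 0.71). Groups overlapped for both genes, since the highest DMSO library of SUV39H2 lay above the lowest Taxol library. Taxol minus DMSO of the same number was -0.064, -0.32 and -0.044 for SUV39H1 and 0.36, 0.19 and 0.28 for SUV39H2. The mean of SUV39H1 ran between -0.26 without Taxol 3 and -0.018 without Taxol 2, and that of SUV39H2 was 0.16 without DMSO 1. Within SUV39H2 the sgRNAs pointed both ways. Number 6104 was the highest, at 801, 391 and 4140 normalized counts in Taxol and 316, 181 and 509 in DMSO (log2 fold change 1.82), and number 6108 the lowest, at 132, 152 and 497 in Taxol and 278, 1100 and 290 in DMSO (-1.05). With the replicate number as a block, SUV39H2 also passed the unadjusted threshold as enriched (exact RRA p = 0.0476, adjusted p = 0.712), which brought the number of genes to 2. It passed as enriched without DMSO 3 (exact RRA p = 0.0433, adjusted p = 0.792), but as depleted without Taxol 3 (exact RRA p = 0.0464, adjusted p = 0.932). With the median level of the sgRNAs of SUV39H2 in each library in place of the mean level, the difference between groups was -0.14. Such a difference can rest on different sgRNAs in different libraries. The median of the 10 sgRNA fold changes themselves was 0.36, and 7 of 10 sgRNAs were higher.

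SETDB1, the methyltransferase recruited by KRAB zinc-finger proteins, was lower in every Taxol library. It averaged 8.36, 8.41 and 8.42 in Taxol and 8.61, 8.86 and 8.47 in DMSO, so that the groups did not overlap. The differences within same-numbered libraries were -0.24, -0.45 and -0.049. This held for 1 of the 12 genes, against 4.49% of all genes for lower and 6.29% for higher means; none of the 12 was higher without overlap. The log2 fold change was -0.25 ± 0.14 (interval -0.69 to 0.19), 8 of 10 sgRNAs were lower, and the RRA test did not call it (adjusted p = 0.969). The lowest sgRNA, number 5543, stood at 159, 181 and 125 normalized counts in Taxol and 527, 151 and 724 in DMSO (-1.33), with DMSO 2 inside the Taxol range. Without it the mean of SETDB1 was -0.13, and without DMSO 2 the mean over all 10 was -0.14.

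SETDB2, a SET-domain protein of the same subfamily, had the opposite sign. It averaged 9.36, 8.92 and 9.10 in Taxol and 8.63, 8.99 and 8.68 in DMSO (0.36 ± 0.21, interval -0.11 to 0.83), and 7 of 10 sgRNAs were higher. DMSO 2 lay above Taxol 2, so the groups overlapped. Its most enriched sgRNA, number 5553, had 6913, 1190 and 1492 normalized counts in Taxol and 954, 953 and 1282 in DMSO (1.13), the excess being mostly in Taxol 1.

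The dimer partners EHMT1 and EHMT2 lay on opposite sides of 0, though neither differed from 0 beyond its interval. EHMT1 averaged 9.36, 9.28 and 8.97 in Taxol and 9.20, 9.73 and 9.46 in DMSO (-0.25 ± 0.24, interval -0.76 to 0.25), with 6 of 10 sgRNAs lower. The mean was -0.39 without DMSO 1, -0.12 without DMSO 2 and -0.14 without Taxol 3. Of its sgRNAs, number 1872 was the lowest, at 851, 903 and 779 in Taxol and 977, 2114 and 2448 in DMSO (-1.03), without overlap. EHMT2 averaged 9.65, 9.91 and 9.51 in Taxol and 9.15, 9.60 and 9.25 in DMSO (0.36 ± 0.22, interval -0.16 to 0.87). Its Taxol libraries exceeded the DMSO library of the same number by 0.50, 0.30 and 0.26, and 8 of 10 sgRNAs were higher, but DMSO 2 lay above Taxol 3. The highest, number 1886, had 629, 1821 and 315 normalized counts in Taxol and 139, 449 and 278 in DMSO (1.46).

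ATF7IP, the stabilizing partner of SETDB1, averaged 8.53, 8.64 and 8.97 in Taxol and 8.73, 8.30 and 8.57 in DMSO (0.18 ± 0.22, interval -0.28 to 0.63), with 5 sgRNAs lower and 5 higher. Without number 492, the sgRNA that was abundant in Taxol 3, its mean was -0.015, and without Taxol 3 itself it was 0.049. TRIM28 (KAP1), the corepressor that bridges KRAB zinc-finger proteins and SETDB1, averaged 8.07, 7.73 and 8.19 in Taxol and 8.22, 8.09 and 7.89 in DMSO (-0.069 ± 0.21, interval -0.51 to 0.37). The groups overlapped for both partners. The sign of TRIM28 depended on single libraries and sgRNAs, with a mean of 0.065 without Taxol 2, 0.0083 without DMSO 1, -0.17 without Taxol 3 and -0.23 without number 6606. Among the sgRNAs of TRIM28, number 6608 was the lowest, at 200, 271 and 365 in Taxol and 1017, 1425 and 216 in DMSO (-1.32), and number 6606 the highest, at 3277, 335 and 218 in Taxol and 317, 316 and 141 in DMSO (1.36). For number 6608 DMSO 3 lay inside the Taxol range, and for number 6606 Taxol 1 stood far above the other libraries.

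MPHOSPH8 (MPP8), the chromodomain subunit of the HUSH complex, averaged 9.21, 9.06 and 8.82 in Taxol and 8.74, 8.89 and 8.74 in DMSO (0.24 ± 0.15, interval -0.22 to 0.70). Taxol 3 lay below DMSO 2, so the groups overlapped, while the differences within same-numbered libraries were 0.47, 0.17 and 0.082. Its mean was 0.15 without Taxol 1. Its sgRNAs ran from -1.15 for number 3758 to 1.61 for number 3753, and number 3753 rested on the 10675 normalized counts of Taxol 1.

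Among the HP1 readers, only CBX3 passed the unadjusted threshold, and the 3 paralogs did not share a direction. CBX3 (HP1 gamma) averaged 8.90, 8.57 and 8.46 in Taxol and 9.19, 9.47 and 8.59 in DMSO. DMSO 3 lay among the Taxol libraries, so the groups overlapped, and within same-numbered libraries the differences were -0.29, -0.89 and -0.13. The log2 fold change was -0.44 ± 0.36 (interval -0.93 to 0.05), at percentile 2.31 of the 779 genes, with an exact RRA p of 0.0367 and an adjusted p of 0.917. Only 6 of its 10 sgRNAs were lower, and 2 of them, numbers 993 and 994, passed an unadjusted p under 0.05 of limma. Number 993 had 49.9, 149 and 61.6 normalized counts in Taxol and 468, 619 and 144 in DMSO (-2.15), which corresponded to 71, 66 and 28 reads in Taxol and 503, 1055 and 122 in DMSO. Number 994 had 612, 744 and 812 in Taxol and 1452, 2508 and 1644 in DMSO (-1.34). For number 994 every Taxol library was below every DMSO library, while for number 993 Taxol 2 and DMSO 3 were level. Without number 993 the mean was -0.25 and CBX3 no longer passed (exact RRA p = 0.136). It also did not pass without DMSO 1 or without Taxol 3, and its mean was -0.25 without DMSO 2 and -0.68 without DMSO 3.

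CBX1 (HP1 beta) averaged 8.95, 8.58 and 9.47 in Taxol and 8.62, 9.01 and 9.12 in DMSO (0.083 ± 0.37, interval -0.41 to 0.58), with 5 sgRNAs on each side. CBX5 (HP1 alpha) averaged 9.36, 8.73 and 8.54 in Taxol and 8.76, 8.15 and 8.64 in DMSO (0.36 ± 0.38, interval -0.12 to 0.85). Both overlapped between groups. The mean of CBX5 was 0.12 without Taxol 1 and 0.18 without DMSO 2, and that of CBX1 ran between -0.15 without Taxol 3 and 0.29 without Taxol 2. The most enriched sgRNA of CBX5, number 1017, had 5311, 532 and 2496 in Taxol and 538, 334 and 732 in DMSO (1.91), and Taxol 2 lay below DMSO 3 and DMSO 1.

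At the level of single sgRNAs, 5 of the 120 passed an unadjusted p under 0.05 of limma in this comparison, and 2 did so without DMSO 1. Lower in Taxol were 2, the CBX3 sgRNAs 993 and 994, against 1.55% of all sgRNAs. Higher were 3, CBX5 1017, ATF7IP 492 and SUV39H2 6104, against 2.01% of all sgRNAs. After Benjamini-Hochberg adjustment none passed (lowest adjusted p of limma among the 120, 0.967), and the share among all sgRNAs was 0%. Each of the 3 higher ones had at least 1 Taxol library inside the DMSO range. Of the 120 sgRNAs, 3.33% were lower without overlap, against 4.26% of all sgRNAs, and 1.67% were higher, against 4.76%. ATF7IP 492 stood at 1415, 742 and 7238 normalized counts in Taxol and 750, 482 and 404 in DMSO (1.90).

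Growth without the drug was read from DMSO against AP. None of the 12 genes was called depleted or enriched, against 2.05% and 0.128% of all genes. At the unadjusted threshold CBX3 passed as enriched, against 8.09% of all genes, and none passed as depleted, against 11.8%. The number was 0 without DMSO 1 and 2 without DMSO 2, DMSO 3 or AP 3, with SUV39H1 as the added gene. The 120 sgRNAs had a median log2 fold change of 0.14, beside 0.13 over all sgRNAs and 0.43 over the non-targeting sgRNAs. It was 0.033 without DMSO 3 and 0.08 without DMSO 2. Centring on non-targeting sgRNAs moved the median over all genes by -0.31, and under it SETDB2, EHMT1, CBX5 and MPHOSPH8 turned negative, while CBX3 stood at 0.61, SUV39H1 at 0.27 and CBX1 at 0.074.

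CBX3 had the highest fold change of the 12 in this comparison. It averaged 9.61, 9.98 and 9.02 in DMSO and 8.47 and 8.76 in AP, with every DMSO library above both AP libraries. The log2 fold change was 0.92 ± 0.41 (n = 3 and 2), with an interval of 0.39 to 1.45, and stood at percentile 99.2 of the genes. All 10 sgRNAs were higher. The exact RRA p was 0.0133 with an adjusted p of 0.344, and limma on gene means gave an adjusted p of 0.0648. Number 993 had 626, 886 and 193 normalized counts in DMSO and 31.1 and 68.9 in AP, that is 503, 1055 and 122 reads in DMSO and 46 and 58 in AP. Its log2 fold change of 3.33 was the highest of all 7855 sgRNAs. Number 997 followed with 1544, 397 and 339 in DMSO and 81.8 and 296 in AP (1.92), and the lowest of the gene, number 991, was at 0.087. Without number 993 the mean of CBX3 was 0.65 and the gene did not pass the unadjusted threshold (exact RRA p = 0.108), nor did it pass without DMSO 1.

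SUV39H1 was also above AP in every DMSO library, at 8.23, 8.31 and 8.43 in DMSO and 7.67 and 7.82 in AP. Its log2 fold change was 0.58 ± 0.10 (interval 0.11 to 1.05), but its RRA test did not pass (adjusted p = 0.738), and limma on gene means gave an adjusted p of 0.17. Its highest sgRNA, number 6092, had 1235, 1513 and 395 in DMSO and 130 and 240 in AP (2.35), and without it the mean was 0.38. CBX1 averaged 9.04, 9.52 and 9.55 in DMSO and 8.96 and 9.02 in AP (0.38 ± 0.24, interval -0.079 to 0.84), and 9 of its 10 sgRNAs were higher. In all, 3 of the 12 genes were higher without overlap, against 29.3% of all genes. TRIM28, at 8.64, 8.61 and 8.31 in DMSO and 8.67 and 8.71 in AP (-0.17 ± 0.15, interval -0.64 to 0.29), was the 1 lower gene without overlap, against 14.1% of all genes. The remaining 8 genes lay between -0.21 for SETDB1 and 0.15 for SETDB2 and EHMT1, and their groups overlapped.

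CBX5, whose paralog CBX3 led the list, averaged 9.18, 8.67 and 9.07 in DMSO and 8.93 and 8.75 in AP (0.13 ± 0.23, interval -0.34 to 0.60). SETDB1 averaged 9.03, 9.37 and 8.90 in DMSO and 9.55 and 9.07 in AP (-0.21 ± 0.28), and without AP 1 its mean was 0.033. Of the 120 sgRNAs, 4 passed an unadjusted p under 0.05 of limma, all as higher, against 3.21% of all sgRNAs, and none as lower, against 3.65%. Without AP 1 this number was 1, and without DMSO 2 or without DMSO 3 it was 7. Besides CBX3 993 and 997 and SUV39H1 6092 this was SETDB2 5556, at 848, 4244 and 2262 in DMSO and 640 and 876 in AP (1.42), with DMSO 1 inside the AP range. The lowest adjusted p of limma among the 120 was 0.695, and 0% of all sgRNAs passed.

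Growth in Taxol was set against AP in the same way. None of the 12 genes was called, against 4.62% of all genes depleted and 1.41% enriched. SETDB1 passed the unadjusted threshold as depleted, against 13.1% of all genes, and none of the 12 as enriched, against 8.34%. The number that passed was 0 without AP 1, and 2 without AP 3 or without Taxol 1. The median of the 120 sgRNAs was 0.27, against 0.15 for all sgRNAs and 0.68 for the non-targeting sgRNAs. Without Taxol 3 it was 0.052, and without Taxol 1 it was 0.12. Higher without overlap were 8 of the 12 genes, against 32.3% of all genes, and lower was 1, SETDB1, against 14.5%. The 8 were SUV39H1 (0.48 ± 0.21), SUV39H2 (0.29 ± 0.15), SETDB2 (0.56 ± 0.19), EHMT2 (0.36 ± 0.16), MPHOSPH8 (0.39 ± 0.16), CBX1 (0.51 ± 0.37), CBX3 (0.53 ± 0.22) and CBX5 (0.54 ± 0.36). Centring on the non-targeting sgRNAs moved the median of all genes by -0.53, and under it SUV39H1, SUV39H2, EHMT2, MPHOSPH8, CBX1 and ATF7IP were below 0, while CBX3 was at 0.00097, CBX5 at 0.011 and SETDB2 at 0.034. Relative to the non-targeting sgRNAs, none of the 8 stood higher by more than its SD between libraries.

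SETDB1 averaged 8.47, 8.52 and 8.55 in Taxol and 9.16 and 8.69 in AP. All Taxol libraries were below both AP libraries, and the AP libraries differed from each other by more than the Taxol libraries did. The log2 fold change was -0.41 ± 0.20 (interval -0.87 to 0.048), 8 of 10 sgRNAs were lower, the exact RRA p was 0.0418 and the adjusted p 0.347. Number 5543, the lowest, had 172, 195 and 137 in Taxol and 590 and 199 in AP (-1.04). The mean was -0.17 without AP 1, when the gene no longer passed the unadjusted threshold, and -0.65 without AP 3. It also did not pass without Taxol 1 or without Taxol 3, with limma on gene means (adjusted p = 0.249) or with RRA over 10% of ranks (adjusted p = 1). With the non-targeting sgRNAs at 0 it was -0.93.

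TRIM28, at 8.18, 7.84 and 8.31 in Taxol and 8.28 and 8.33 in AP (-0.20 ± 0.20), and EHMT1, at 9.48, 9.39 and 9.10 in Taxol and 9.42 and 9.35 in AP (-0.064 ± 0.17), were the other 2 genes with a negative mean, and both overlapped. Centred on non-targeting sgRNAs they were at -0.72 for TRIM28 and -0.59 for EHMT1. TRIM28 was at -0.061 without Taxol 2, and EHMT1 at 0.048 without Taxol 3. The lowest sgRNA of TRIM28, number 6604, had 141, 188 and 146 in Taxol and 354 and 421 in AP (-1.29), with no overlap. ATF7IP had a mean of 0.12 ± 0.19 and the widest spread among its own sgRNAs, with an SD of 1.18. Number 491 had 67.6, 127 and 101 in Taxol and 389 and 168 in AP (-1.41), and number 499 had 158, 230 and 276 in Taxol and 749 and 397 in AP (-1.34). Against these, number 498 had 1478, 300 and 158 in Taxol and 54.7 and 161 in AP (2.12). The sgRNAs 491 and 499 were lower in every Taxol library, while Taxol 3 of number 498 was within the AP range.

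Of the 120 sgRNAs, 8 passed an unadjusted p under 0.05 of limma in Taxol against AP, and 1 did so without AP 1. The 3 lower ones, against 3.9% of all sgRNAs, were ATF7IP 491 and 499 and TRIM28 6604. The 5 higher ones, against 2.24%, were ATF7IP 498, CBX5 1017, SUV39H1 6092, and EHMT2 1886 and 1890. CBX5 1017 had 5738, 574 and 2717 in Taxol and 284 and 545 in AP (2.40). EHMT2 1886 had 679, 1966 and 343 in Taxol and 141 and 312 in AP (1.87), and EHMT2 1890 had 1501, 1854 and 7643 in Taxol and 902 and 582 in AP (1.93). In these 3 the groups did not overlap. Of the 120 sgRNAs, 12.5% were higher without overlap, against 12.4% of all sgRNAs, and 12.5% were lower, against 13.6%. The lowest adjusted p of limma among the 120 was 0.737, and the share passing among all sgRNAs was 0%.

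The comparisons share libraries and are not independent, and their values are set side by side only as a description. For CBX3 the log2 fold change was -0.44 in Taxol against DMSO, 0.92 in DMSO against AP and 0.53 in Taxol against AP. For SETDB1 the values were -0.25, -0.21 and -0.41 in the same order. SUV39H1 was at -0.14, 0.58 and 0.48, and EHMT2 at 0.36, -0.041 and 0.36. The mean of CBX3 was thus higher in DMSO than in Taxol or AP, though DMSO 3 lay among the Taxol libraries, and SETDB1 was below 0 in all 3. The sign of SETDB1 in DMSO against AP was not stable, at 0.033 without AP 1. It was 0.15 with the median level of the gene's sgRNAs in each library in place of the mean level. The same summary gave -0.77 in Taxol against DMSO. Such a difference of median levels can rest on different sgRNAs in different libraries. The median of the sgRNA fold changes themselves was -0.28 in DMSO against AP and -0.20 in Taxol against DMSO, near the means.

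The sgRNAs to a gene share their target and are not replicates of a condition. Within a gene they differed from each other about as much as sgRNAs of other genes did. The median over the 12 genes of the SD between sgRNAs was 0.67 in Taxol against DMSO, beside 0.64 over all genes, then 0.67 beside 0.65 in DMSO against AP and 0.77 beside 0.68 in Taxol against AP. In Taxol against DMSO the SD between sgRNAs was smallest for EHMT1 (0.43) and SETDB1 (0.45), and largest for SUV39H2 (0.98) and CBX3 (0.88). In every comparison and for each of the 12 genes, the SD between sgRNAs exceeded the SD of the gene mean between libraries. These SDs measure unlike quantities. The fold change of a single sgRNA carries its full spread between libraries, while a gene mean averages part of that spread out. The comparison therefore cannot tell whether the sgRNAs of a gene differed in effect, and no conclusion was drawn from it.

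Enzymes that remove H3K9 methylation and further partners of the pathway were counted from 2 lists. Of 12 demethylases and related JmjC proteins, all of them measured, none was called in any comparison. At the unadjusted threshold PHF8, a demethylase with a PHD finger, passed as depleted in Taxol against DMSO (-0.26 ± 0.35, adjusted p = 0.917), PHF2, a related JmjC protein, as depleted in DMSO against AP (-0.45 ± 0.30, adjusted p = 0.351), and KDM3B, an H3K9 demethylase, as enriched in Taxol against AP (0.47 ± 0.43, adjusted p = 0.412). The medians of this list were 0.048, 0.25 and 0.27 in the same order of comparisons, beside 0.031, 0.15 and 0.20 over all genes and 0.13, 0.12 and 0.37 for the 12 writers, partners and readers. Of 27 symbols of other partners, some of them alternative names, 16 were in the library and none was called. CHAF1A, the large subunit of the chromatin assembly factor CAF-1, passed the unadjusted threshold as enriched in Taxol against DMSO (0.67 ± 0.22, adjusted p = 0.519) and in Taxol against AP (0.70 ± 0.26, adjusted p = 0.412). MBD1, which binds methylated CpG, passed as depleted in Taxol against DMSO with 4 of its 10 sgRNAs lower (-0.16 ± 0.25, adjusted p = 0.82), and POGZ, an HP1-binding zinc-finger protein, as enriched in DMSO against AP (0.58 ± 0.22, adjusted p = 0.373).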

How the data were processed

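The authors deposited, for each comparison, a table of sgRNA counts already normalized, made with MAGeCK 0.5.8 per the submitters' processing notes, in which the normalized counts of a group's libraries are joined in a cell. How reads were trimmed and mapped is not given in the sources used here. The order in a cell was taken to be that of the replicate numbers. AP cells hold 3 values but the labels name replicates 1 and 3, so the first and last were used and 2 value columns, 1 in each AP table, were left out. Of 7856 rows, 1 was a header line counted as an sgRNA and was removed. The authors' fold changes, scores and p-values were not used. Normalized counts were whole multiples of a step per library, within 0.1 read for 98.99% to 99.99% of values, and this gave the reads used for depth only. No count test was run. Depth limits the precision of sgRNAs with few reads, and PCR reads are not independent molecules.

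Each sgRNA was tested with limma 3.58.1 in R 4.3.3 (lmFit, eBayes with trend) on log2(normalized count + 1), without covariates, within each table. Alpha-RRA over the lowest or highest 25% of ranks gave exact one-sided p-values per gene, adjusted by Benjamini-Hochberg per direction over 779 genes with at least 3 sgRNAs. The code was tested on simulated data. Same-numbered Taxol and DMSO libraries deviated together (correlations 0.169, 0.131 and 0.206), so the numbers pair these samples. The printed SDs, intervals and overlaps between groups do not use this pairing. A fit with the replicate block was an alternative. Others were a pseudocount of 10, a filter at a mean of 30 normalized counts, centring on non-targeting sgRNAs, median-ratio scaling and limma on gene means. Another took the median level of a gene's sgRNAs in each library in place of the mean level. RRA over 10% of ranks, eBayes without trend and leaving out each library were also used. Leaving out the farthest sgRNA of each gene was chosen after seeing the data. All 12 genes were named; sgRNAs were named if lowest or highest of their gene, past an unadjusted limma p under 0.05, or in the top 1% of a library, with the remaining ones given by counts. The members and lists were chosen with earlier results of these data known.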

Additional observations from a re-analysis of the deposited data

How the results depend on the processing

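None of the 12 genes was called in any comparison under any alternative; the lowest adjusted p was 0.0648, for CBX3 in DMSO against AP with limma on gene means. Genes past the unadjusted threshold numbered 1 in each comparison. In Taxol against DMSO they were 0 with limma on gene means, 2 with the replicate block (CBX3 and SUV39H2), 0 without the farthest sgRNA of each gene, and 0 to 2 with a library left out. In DMSO against AP they were 2 with limma on gene means, 2 with the replicate block, and 0 to 2 with a library left out. In Taxol against AP they were 2 with non-targeting centring, 4 with limma on gene means (SUV39H1, SETDB2, CBX3 and CBX5 as enriched, without SETDB1), 0 with the replicate block, and 0 to 2 with a library left out. The sgRNAs past an unadjusted p under 0.05 numbered 5, and 2 to 6 with a library left out (2 without DMSO 1), in Taxol against DMSO. They were 4, 9 with the replicate block, and 1 to 7 with a library left out (1 without AP 1), in DMSO against AP, and 8, and 1 to 12 with a library left out (1 without AP 1), in Taxol against AP. Centring on non-targeting sgRNAs put the median of the 120 sgRNAs at -0.15, -0.16 and -0.25 in Taxol against DMSO, DMSO against AP and Taxol against AP, instead of 0.016, 0.14 and 0.27; with a library left out they were -0.021 to 0.12, 0.033 to 0.15 and 0.052 to 0.26. With RRA over 10% of ranks EHMT2 passed in place of SETDB1 in Taxol against AP. Of the fold changes of single genes, 148 of 156, 129 of 144 and 124 of 144 values under the alternatives moved by less than the SD between libraries, and 9, 14 and 11 changed sign. Leaving out a Taxol or DMSO library, or using the replicate block, could not move a value by as much as this SD. The counts that moved less than the SD therefore include values fixed in advance, and no conclusion on stability was drawn from them. In the AP comparisons same-numbered libraries did not deviate together (correlations 0.0357 and 0.0105 for DMSO, -0.0174 and 0.0144 for Taxol), so the block there, over replicates 1 and 3, pairs only numbers. The cause of these changes was not tested. The number of libraries, 2 or 3 a group, limits the precision of all values.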
